A study of Mus musculus with 6 samples.

Results

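The transcripts described here are 8 genes of cytosolic nucleic acid sensing, chosen by name from the 57180 genes of the count table. They comprise the RNA sensors *Ifih1* and *Dhx58*, the adaptor *Mavs*, the kinases *Tbk1* and *Ikbke*, the Z-form sensor *Zbp1*, the DNA sensor *Aim2* and the DNA exonuclease *Trex1*. They were measured in mouse osteoclast precursors (OCPs), the bone marrow-derived macrophages that RANKL turns into osteoclasts. The transcriptome was read in 3 WT samples and in 3 samples from knockouts of *lincRNA-EPS* (KO), with 1 library each, and the comparison asks how loss of this long non-coding RNA altered the precursors before any bacterial stimulus. Both genotypes were grown with M-CSF, a macrophage growth factor, at 40 ng/ml. After the first 24 h RANKL was added at 40 ng/ml, and it was present for 48 h. The study's mice were C57BL/6, and the labels give neither the age of the mice nor whether the 3 libraries of a genotype came from separate animals, so the p-values measure the spread between these samples only. The targeted transcript, listed as *Ttc39aos1*, had 20 counts in WT replicate 1, 37 in WT replicate 2 and 41 in WT replicate 3, while every KO library held 0.

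Cells read foreign or misplaced nucleic acid in the cytosol with families of dedicated receptors. MDA5, the product of *Ifih1*, and RIG-I bind viral double-stranded RNA and signal through MAVS on the mitochondrial surface, while LGP2, the product of *Dhx58*, binds RNA but lacks the signalling domains of the other two. MAVS, like the DNA-sensing adaptor STING, recruits TBK1 and IKKε (*Ikbke*), which phosphorylate IRF3 and IRF7 and so start interferon transcription. ZBP1 binds left-handed Z-form nucleic acid and can start necroptosis, AIM2 builds an inflammasome on cytosolic DNA, and TREX1 removes such DNA. Interferon is also known to induce genes of this set, *Ifih1*, *Dhx58*, *Zbp1* and *Ikbke* among them. These are examples and not a full list, so they do not divide the members into induced and not induced genes. Whether interferon acts on any member in these cells was not tested.

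RefSeq promoter windows on GRCm38.p6 were at hand for 6 of the 8 genes, all but *Dhx58* and *Zbp1*. In the 250 bases before each start, both strands were searched for a pair of GAAA with 2 bases of any kind between them, a spacing bound by the interferon factors IRF and ISGF3, and for TTCNNNGAA, the form bound by STAT dimers. Neither was found in the windows of these 6 genes, while 2.98% and 7.02% of the 32851 mouse promoters held them, or 3.46% and 8.13% when counted by gene. The wider spacings GAAANNNGAAA and GAAANNNNGAAA, with 3 and 4 bases between, were added after that. The first was found in 1 of the genes, beside 2.38% of all promoters or 2.75% by gene, and the second in 2 of the genes, beside 2.31% of all promoters or 2.66% by gene. *Ifih1* held both in an overlapping run on the strand opposite to the gene, from base -107 to base -89 before the start. *Ikbke* held the second, GAAAGAGAGAAA at chr1:131279588-131279599, from base -36 to base -25 before the RefSeq start. GENCODE places the start of *Ikbke* further upstream, so in that annotation the site lies within the gene's first exon. The window of *Ifih1* is shown because it holds the paired match, with the matched run in capitals, and that of *Tbk1* because this kinase was found without a match beside its partner *Ikbke*. Both genes lie on the minus strand and the windows read in the direction of the gene, 5′ to 3′, at chr2:62646256-62646505 and chr10:121586795-121587044.
Ifih1: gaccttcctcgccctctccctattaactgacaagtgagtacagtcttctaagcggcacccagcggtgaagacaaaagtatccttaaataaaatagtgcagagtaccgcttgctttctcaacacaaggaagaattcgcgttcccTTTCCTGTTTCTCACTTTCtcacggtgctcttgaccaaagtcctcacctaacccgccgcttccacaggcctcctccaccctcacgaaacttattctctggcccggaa
Tbk1: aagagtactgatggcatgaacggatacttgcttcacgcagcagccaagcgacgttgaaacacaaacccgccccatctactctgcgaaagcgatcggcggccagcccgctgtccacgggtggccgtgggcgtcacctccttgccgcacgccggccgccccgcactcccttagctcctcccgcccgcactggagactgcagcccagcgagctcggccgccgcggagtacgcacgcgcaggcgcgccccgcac
A match of letters is a description of the window and does not show that a factor binds there.

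Counts were scaled by edgeR's TMM method to CPM, the counts in 1000000 of a library's scaled total, and 13428 genes passed its expression filter, the 8 members among them. A gene was called past the limits with an adjusted p under 0.01 and a fold change above 1.3, by edgeR's quasi-likelihood test with Benjamini-Hochberg adjustment over all genes tested. None of the 8 members was past these limits, where 0.00745% of all tested genes were, which is 1 gene. DESeq2 put none of the 7 members for which it gave an adjusted p past the limits, where it put 1.22% of genes, or 3.22% with the GC correction described below. It gave none for *Zbp1* on either scale. At an adjusted p under 0.05 with the same fold it called *Dhx58* (adjusted p = 0.0451), as it did 7.56% of genes, but not with GC correction (adjusted p = 0.159). With that correction DESeq2 gave *Ikbke* an adjusted p of 0.0261 and *Ifih1* one of 0.0428, both short of the fold limit. At an unadjusted p under 0.05 in edgeR's test, 3 of the 8 were lower in KO (*Dhx58*, *Ikbke* and *Zbp1*) and 1 was higher (*Aim2*). That is 4 of 8 beside 26.2% of all genes tested, which split into 13.2% lower and 13% higher. All 3 KO libraries lay below all 3 WT libraries for 4 members and above them for 1, and such a separation was seen for 35.7% of all genes, or 18.8% lower and 16.9% higher. The median log2 fold change of the 8 was -0.22, beside 0.0091 over all genes. Because the samples were bulk cultures, fewer cells that express a gene and less RNA per cell cannot be told apart.

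The library totals were 17757351 to 19998611 counts, so that 3 counts, the smallest level taken as measured, corresponded to 0.15 to 0.173 CPM. Between libraries, counts shifted with transcript GC content, from a log2 slope of 0.33 per 10 percentage points of GC in WT replicate 2 to -0.46 in KO replicate 3. Over all genes the log2 fold change was correlated with GC content across genes, which are not independent replicates, at r = -0.51, and at -0.015 after each library was corrected by a spline on GC content. Since the members span 42.8% to 57.8% GC, each is given with and without this correction. All 3 KO slopes lay below all 3 WT slopes, so the GC trend and the genotype cannot be told apart with these libraries. With the correction 3 genes, or 0.0223%, were past the limits, again none of the members. In KO replicate 2, 2.71% of the counts were of the ribosomal RNA gene *Rn18s-rs5*, beside 0.202% to 0.575% in the other libraries, and mitochondrial transcripts took 1.00% to 1.53% of WT and 1.78% to 3.32% of KO libraries. With these genes left out, the same 4 members were at an unadjusted p under 0.05 by edgeR. The 10 macrophage and precursor markers, none at 0, summed to 18860 to 20110 CPM in WT and 18260 to 21130 CPM in KO, most of it *Lyz2*. Within the list 2 genes had an unadjusted edgeR p under 0.05 and were higher in KO, the osteoclast genes *Ctsk* (875 to 976 CPM in WT, 1471 to 1769 CPM in KO) and *Acp5* (998 to 1039 CPM in WT, 1200 to 1410 CPM in KO). The macrophage surface genes *Adgre1* (525 to 545 CPM in WT, 434 to 454 CPM in KO) and *Itgam* (888 to 962 CPM in WT, 735 to 794 CPM in KO) had such a p and were lower. Of 10 neutrophil markers, 9 were tested, and 5 had an unadjusted edgeR p under 0.05 and were higher in KO and 1 was lower. For both marker lists the shares over all genes tested are 13% higher and 13.2% lower. The neutrophil markers summed to 1346 to 1523 CPM in WT and 1766 to 2134 CPM in KO. *Ly6g*, the defining surface marker, stayed at or below 0.251 CPM in every library. The part of these markers in the members' values was not tested.

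**Figure D1:**
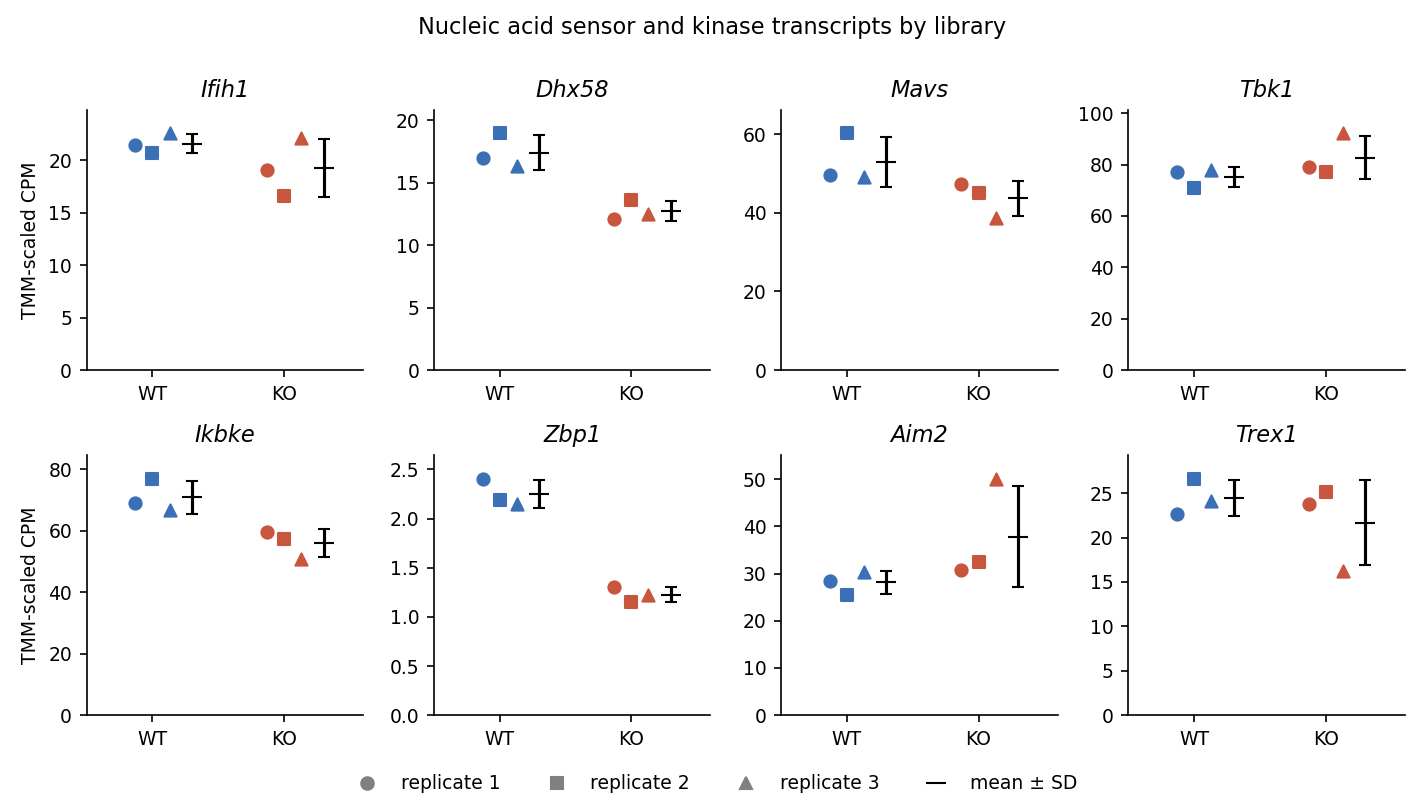
Level of the 8 sensor and kinase transcripts in TMM-scaled CPM (y axis from 0, linear) in the 3 WT and 3 KO libraries, with replicate numbers as symbols and the mean ± SD in black. *Dhx58*, *Ikbke*, *Mavs* and *Zbp1* have every KO point below every WT point, *Aim2* has every KO point above, and the spread of *Aim2* and *Trex1* in KO comes with replicate 3 standing apart.

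Per kilobase of the longest transcript, the 8 genes covered a wide range of levels in WT cells. *Tbk1* led with 24.9 ± 1.25 CPM per kb (SD, n = 3), and its libraries overlapped those of *Trex1* at 22.6 ± 1.89. Below them *Mavs* (17.3 ± 2.06), *Ikbke* (12.1 ± 0.912), *Aim2* (9.93 ± 0.866), *Dhx58* (7.21 ± 0.566) and *Ifih1* (3.95 ± 0.168) followed without overlap between neighbours, and *Zbp1* was lowest at 0.676 ± 0.0414. In KO the order was that of WT except that *Aim2*, at 13.3 ± 3.78 CPM per kb, stood above *Ikbke* at 9.56 ± 0.779, and the libraries of *Mavs* overlapped those of *Trex1* above it and *Aim2* below it. The place of *Trex1* is uncertain because its reads are shared with an overlapping gene. The kinase and adaptor genes used by many sensors were thus read at higher levels per length than the RNA sensors themselves.

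*Ifih1* (ENSMUSG00000026896, chr2:62595798-62646255, minus strand, GRCm38) encodes MDA5, the sensor of long double-stranded RNA. Its level was 21.5, 20.7 and 22.6 CPM in WT replicates 1, 2 and 3 and 19.1, 16.6 and 22.2 CPM in KO replicates 1, 2 and 3. KO replicates 1 and 2 lay below all WT libraries and KO replicate 3 lay among them. Its log2 fold change was -0.16 (SE 0.13), with an adjusted p of 0.436 in edgeR's test. It was -0.066 without KO replicate 2 and -0.27 without KO replicate 3, the latter with an unadjusted p of 0.0393 by edgeR. After GC correction the libraries no longer overlapped, at 23.1 ± 1.08 CPM in WT and 17.9 ± 1.48 CPM in KO (SD, n = 3). The corrected log2 fold change was -0.37 (SE 0.09, 95% interval -0.58 to -0.16), with an unadjusted p of 0.00338 and an adjusted p of 0.0749 by edgeR. The transcript holds 42.8% GC, in the range where KO replicate 3 ran high for genes in general.

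*Dhx58* (ENSMUSG00000017830, chr11:100694884-100704271, minus strand) encodes LGP2, which modulates signalling by the other RNA sensors. WT replicates 1, 2 and 3 had 17.0, 18.9 and 16.3 CPM, and KO replicates 1, 2 and 3 had 12.1, 13.6 and 12.5 CPM. Every KO library was below every WT library, and the KO libraries varied little. The KO level was 0.731 times that of WT, a log2 fold change of -0.45 (SE 0.12, 95% interval -0.72 to -0.18), with an unadjusted p of 0.00467 and an adjusted p of 0.147 by edgeR. With GC correction the difference was smaller, at -0.30 (SE 0.10), the libraries stayed apart, and the adjusted p was 0.124. The antisense gene *Dhx58os* shares 141 exonic bases with it on the opposite strand. The library kit marks strand, but whether the counting used it is not given in the sources used here. The ratio of *Dhx58* to *Ifih1* counts overlapped between the genotypes, at 0.809 ± 0.0962 in WT and 0.672 ± 0.133 in KO (SD, n = 3, two-sided exact permutation p = 0.3), and on GC-corrected values it was 0.714 ± 0.0367 in WT and 0.755 ± 0.118 in KO (exact permutation p = 0.7). The direction of this ratio thus turned with the correction. With 3 libraries against 3 the smallest p that this exact test can give is 0.1.

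*Mavs* (ENSMUSG00000037523, chr2:131234063-131248025, plus strand) encodes the mitochondrial adaptor through which RIG-I and MDA5 signal. It had 49.5, 60.2 and 49.1 CPM in WT replicates 1, 2 and 3 and 47.3, 45.0 and 38.8 CPM in the KO replicates. The KO libraries lay below the WT libraries, with a gap between KO replicate 1 and WT replicate 3 that was small beside the range within each genotype. The difference was -0.28 on the log2 scale (SE 0.12), and its 95% interval of -0.55 to 0.0025 included 0, with an adjusted p of 0.194 by edgeR. Without WT replicate 2, the highest library, it was -0.17. GC correction left -0.12 (SE 0.07, 95% interval -0.29 to 0.04), which is a KO level of 0.817 to 1.03 times WT.

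The kinases IKKε and TBK1 are related and share targets. *Ikbke* (ENSMUSG00000042349, chr1:131254343-131279606, minus strand), which encodes the inducible kinase IKKε, had 69.0, 77.0 and 66.9 CPM in WT replicates 1, 2 and 3 and 59.6, 57.5 and 50.9 CPM in the KO replicates. All KO libraries were below all WT libraries. KO differed from WT by -0.34 on the log2 scale (SE 0.10, 95% interval -0.58 to -0.10), with an unadjusted p of 0.00994 and an adjusted p of 0.147 by edgeR. At 50.3% GC it was little touched by the correction, which gave -0.31 (SE 0.08), an unadjusted p of 0.00298 and an adjusted p of 0.0734. The antisense genes *Gm28913* and *Gm28914* share 65 and 159 of its exonic bases.

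*Tbk1* (ENSMUSG00000020115, chr10:121546455-121586787, minus strand) encodes the kinase that most cells express constitutively. It had 76.9, 70.8 and 77.7 CPM in WT replicates 1, 2 and 3 and 79.0, 76.9 and 92.2 CPM in the KO replicates, and the genotypes overlapped. On the log2 scale KO was higher by 0.14 (SE 0.10, adjusted p = 0.403 by edgeR), or by 0.053 without KO replicate 3. GC correction brought it to 0.019 with an interval of 0.919 to 1.12 times WT. The corrected KO replicate 3 was at 82.3 CPM, close to WT replicate 3 at 79.3 CPM.

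The count ratio of *Ikbke* to *Tbk1* within a library does not depend on the scaling between libraries. It was 0.896, 1.09 and 0.861 in WT replicates 1, 2 and 3 and 0.755, 0.747 and 0.552 in the KO replicates. The means were 0.948 ± 0.122 in WT and 0.685 ± 0.115 in KO (SD, n = 3), with a two-sided exact permutation p of 0.1, the smallest possible. On GC-corrected values the ratio was 0.897 ± 0.0709 in WT and 0.716 ± 0.0648 in KO, and the libraries still did not overlap (exact permutation p = 0.1). The inducible kinase thus took a lower share of the pair in every KO library. For comparison, the count ratio of *Trex1* to *Aim2* was also lower in every KO library, at 0.875 ± 0.145 in WT and 0.622 ± 0.26 in KO (exact permutation p = 0.1), and with GC correction it overlapped (exact permutation p = 1). The ratio of *Trex1* to *Atrip* overlapped on both scales. In all 8 such tests were made, of 4 ratios on both scales, none of which can give a p under 0.05, and the Benjamini-Hochberg adjusted value at an exact permutation p of 0.1 was 0.267.

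*Zbp1* (ENSMUSG00000027514, chr2:173206612-173218923, minus strand) is the least abundant member and had the member log2 fold change furthest from 0. Its counts were 48, 40 and 41 in WT replicates 1, 2 and 3 and 25, 20 and 24 in KO replicates 1, 2 and 3, which are 2.41, 2.19 and 2.15 CPM against 1.3, 1.15 and 1.22 CPM. The genotypes were well apart, and the spread within each was below what counting error alone gives at this depth, a coefficient of variation of 15.2% in WT and 20.9% in KO. The KO level was 0.546 times that of WT, a log2 fold change of -0.87 (SE 0.21, 95% interval -1.35 to -0.39), with an unadjusted p of 0.00261 and an adjusted p of 0.147 by edgeR. With GC correction it was -0.82 (SE 0.20), with an adjusted p of 0.0725. The 5 listed partners through which ZBP1 can signal cell death had no gene with an unadjusted p under 0.05 on either scale.

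*Aim2* (ENSMUSG00000037860, chr1:173350879-173466040, plus strand) encodes the inflammasome sensor of double-stranded DNA. WT replicates 1, 2 and 3 had 28.5, 25.6 and 30.4 CPM, and KO replicates 1, 2 and 3 had 30.7, 32.6 and 50.2 CPM. KO replicates 1 and 2 lay just above the WT libraries and KO replicate 3 far above them. The log2 fold change was 0.42 (SE 0.19, 95% interval 0.0029 to 0.85), with an unadjusted p of 0.0487 and an adjusted p of 0.189 by edgeR. Without KO replicate 3 it was 0.17 with an unadjusted p of 0.157 by edgeR, and leaving out any single WT library also took the p above 0.05. After GC correction the genotypes overlapped, at 30.1 ± 1.13 CPM in WT and 34.7 ± 5.71 CPM in KO (SD, n = 3), and the log2 fold change was 0.21 (SE 0.11, 95% interval -0.05 to 0.46). KO replicate 3 still stood apart at 41.3 CPM, beside 30.9 and 32.0 CPM in the other KO libraries.

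*Trex1* (ENSMUSG00000049734, chr9:109057933-109059734, minus strand) encodes the DNA exonuclease that keeps cytosolic DNA low. Its whole annotated exonic sequence, 1147 bases, lies in exons of *Atrip* on the same strand, so the division of reads between these genes is uncertain. It had 22.6, 26.7 and 24.1 CPM in WT replicates 1, 2 and 3 and 23.8, 25.1 and 16.2 CPM in the KO replicates, with KO replicate 3 alone below the WT range. The log2 fold change was -0.17 (SE 0.17, adjusted p = 0.519 by edgeR), it changed sign to 0.10 (SE 0.09) with GC correction, and for the summed counts of *Trex1* and *Atrip* it was -0.13 with an adjusted p of 0.542. Without KO replicate 3 the uncorrected value was -0.00023, without WT replicate 2 it was -0.11, and without KO replicate 2 it was -0.29. The GC-corrected interval was 0.931 to 1.23 times WT. At 57.8% GC it lies at the other end of the members' range from *Aim2* and *Ifih1*, and KO replicate 3, the lowest of the KO libraries for it, was the highest KO library for both of those.

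**Figure D2:**
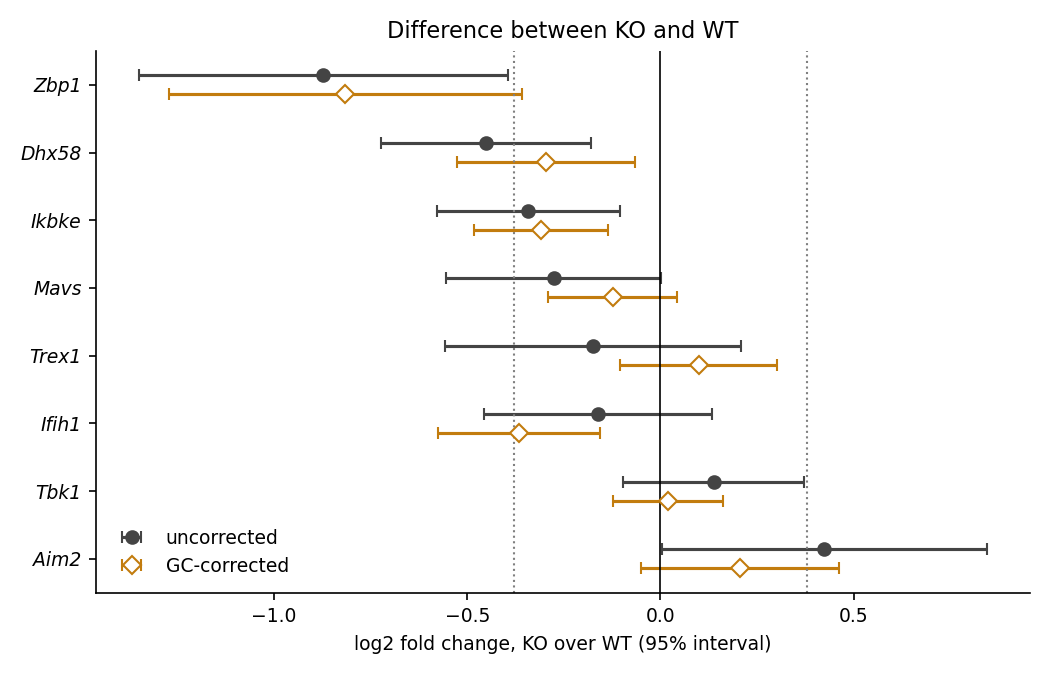
Log2 fold change of KO over WT for the 8 members (x axis, with 95% intervals) from edgeR without GC correction (filled circles) and with it (open diamonds). Dotted lines mark a fold of 1.3, and *Zbp1*, *Dhx58* and *Ikbke* keep their interval below 0 on both scales while *Trex1* changes sign.

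The GC correction changed which members stood out. With it 4 of the 8 had an unadjusted p under 0.05 by edgeR and all 4 were lower in KO, namely *Ifih1*, *Dhx58*, *Ikbke* and *Zbp1*, beside 25.8% of all genes, or 13.2% lower and 12.6% higher. The median log2 fold change was -0.21, beside -0.0012 over all genes. The corrected libraries did not overlap for 5 members, all lower, beside 32.2% of all genes, or 16.8% lower and 15.4% higher. *Dhx58*, *Ikbke* and *Zbp1* were at an unadjusted p under 0.05 in each of the 19 alternatives in which they were fitted. *Aim2* was so in 10 of 19, *Ifih1* and *Mavs* in 4 each, and *Tbk1* and *Trex1* in none. The spread between the KO libraries fell with the correction in 6 of the 8 members, for example from a coefficient of variation of 28.4% to 16.4% for *Aim2* and from 22.2% to 8.84% for *Trex1*, and it went up from 6.31% to 9.7% for *Dhx58* and from 6.2% to 6.57% for *Zbp1*.

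**Figure D3:**
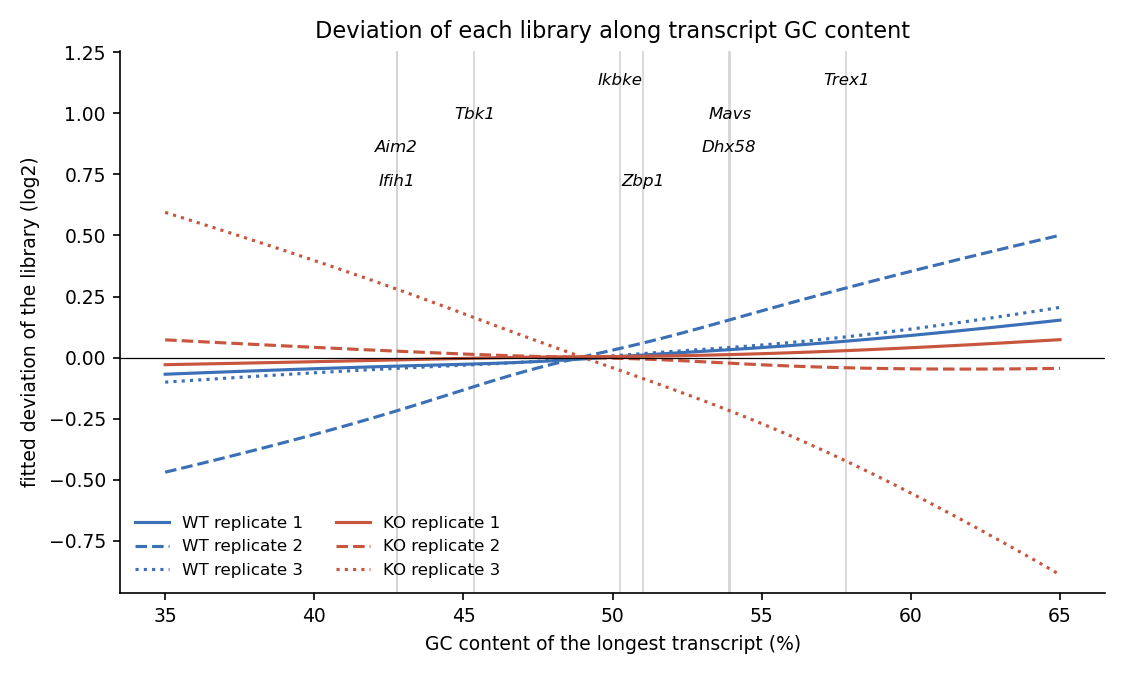
Fitted deviation of each library from the mean of the 6 libraries (y axis, log2) against the GC content of transcripts (x axis, percent), with the GC content of the 8 members as grey lines. KO replicate 3 falls and WT replicate 2 climbs with GC content, the other libraries lie closer to 0, and *Ikbke* and *Zbp1* sit near the point where the curves cross.

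Other genes of these routes were read from 7 lists of 79 genes in all, of which 65 were tested. None was past the limits by edgeR, while DESeq2 put *Irf7* past them. At an unadjusted p under 0.05 in edgeR, 6 were higher and 8 lower in KO, and with GC correction 6 were higher and 9 lower, so these counts lay near the background shares of 13% and 13.2%. The median log2 fold change was -0.016, and -0.06 with correction.

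Among 12 genes of RNA sensing, 2 were lower and 1 higher, and with GC correction 2 were lower and 0 higher. *Rigi*, the RIG-I gene and the third member of the RNA helicase family with *Ifih1* and *Dhx58*, had 33.8, 32.3 and 30.2 CPM in WT replicates 1, 2 and 3 and 25.1, 24.0 and 25.3 CPM in the KO replicates. Its genotypes did not overlap. The log2 fold change was -0.37 (SE 0.10, adjusted p = 0.147 by edgeR), and -0.45 with an adjusted p of 0.047 after GC correction. With the correction the KO libraries lay wholly below WT for each of these 3 helicase genes, as they did for 16.8% of all genes. *Ddx60*, a helicase linked to RIG-I signalling, was at -0.62 (unadjusted p = 0.0101, edgeR) and *Tomm70a*, a mitochondrial import receptor that binds MAVS, at 0.41 (unadjusted p = 0.00945, edgeR), the latter 0.13 with correction and 0.27 without KO replicate 3.

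Of 8 genes around cGAS and STING, 1 was lower, the channel gene *Lrrc8c* at -0.32 (unadjusted p = 0.0145, edgeR). *Cgas*, the DNA sensor that makes cGAMP, had 28.2, 27.5 and 30.6 CPM in WT replicates 1, 2 and 3 and 26.7, 26.2 and 31.7 CPM in the KO replicates. *Sting1* had 19.9, 22.5 and 20.7 CPM in WT and 18.7, 22.7 and 21.4 CPM in KO, in the same order of replicates. Both overlapped between genotypes, with log2 fold changes of -0.029 (95% interval -0.29 to 0.23) and -0.0079 (95% interval -0.28 to 0.26).

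The inflammasome list of 15 tested genes held 2 higher genes. *Il1b*, the cytokine that inflammasomes process, was at 0.74 (SE 0.16, unadjusted p = 0.00139, edgeR), and *Casp4*, the caspase that senses cytosolic LPS, at 0.41 (unadjusted p = 0.0108, edgeR). With GC correction *Il1b* was at 0.65 and *Casp4* at 0.073 with overlapping libraries. The same list then had 3 genes lower and 2 higher, and its median changed sign from 0.13 to -0.12.

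Genes that remove or edit nucleic acid were read beside *Trex1*. Of 8 tested, *Adar*, which edits double-stranded RNA, was at -0.48 (SE 0.11, unadjusted p = 0.00184, edgeR) and the RNA helicase gene *Skic2* at -0.48 (unadjusted p = 0.0157, edgeR), while *Rnaseh2b*, a subunit of RNase H2, was at 0.38 (unadjusted p = 0.0221, edgeR). After correction *Adar* was at -0.35 with an adjusted p of 0.0504, *Skic2* at -0.19 and *Rnaseh2b* at 0.25. The corrected list had 3 genes higher and 2 lower.

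The scaffolds and targets of the kinases, 17 genes, had 3 lower and 2 higher, and 1 lower and 1 higher with GC correction. *Irf7*, the interferon factor that TBK1 and IKKε phosphorylate, had 16.5, 16.9 and 17.8 CPM in WT replicates 1, 2 and 3 and 7.81, 8.97 and 7.74 CPM in the KO replicates. It had the smallest p of all the listed genes, with a log2 fold change of -1.06 (SE 0.12) and an adjusted p of 0.0635 by edgeR, and -0.86 with an adjusted p of 0.022 after GC correction. *Irf3*, the constitutive target, overlapped between genotypes, at -0.12 (95% interval -0.35 to 0.11), and was at 0.14 with correction. *Tank* and *Azi2*, which encode adaptors that bind TBK1, were at 0.51 and 0.31 (unadjusted p = 0.0162 and 0.0341, edgeR), and at 0.16 and 0.11 with correction. Without KO replicate 3 they were at 0.29 and 0.18.

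**Figure D4:**
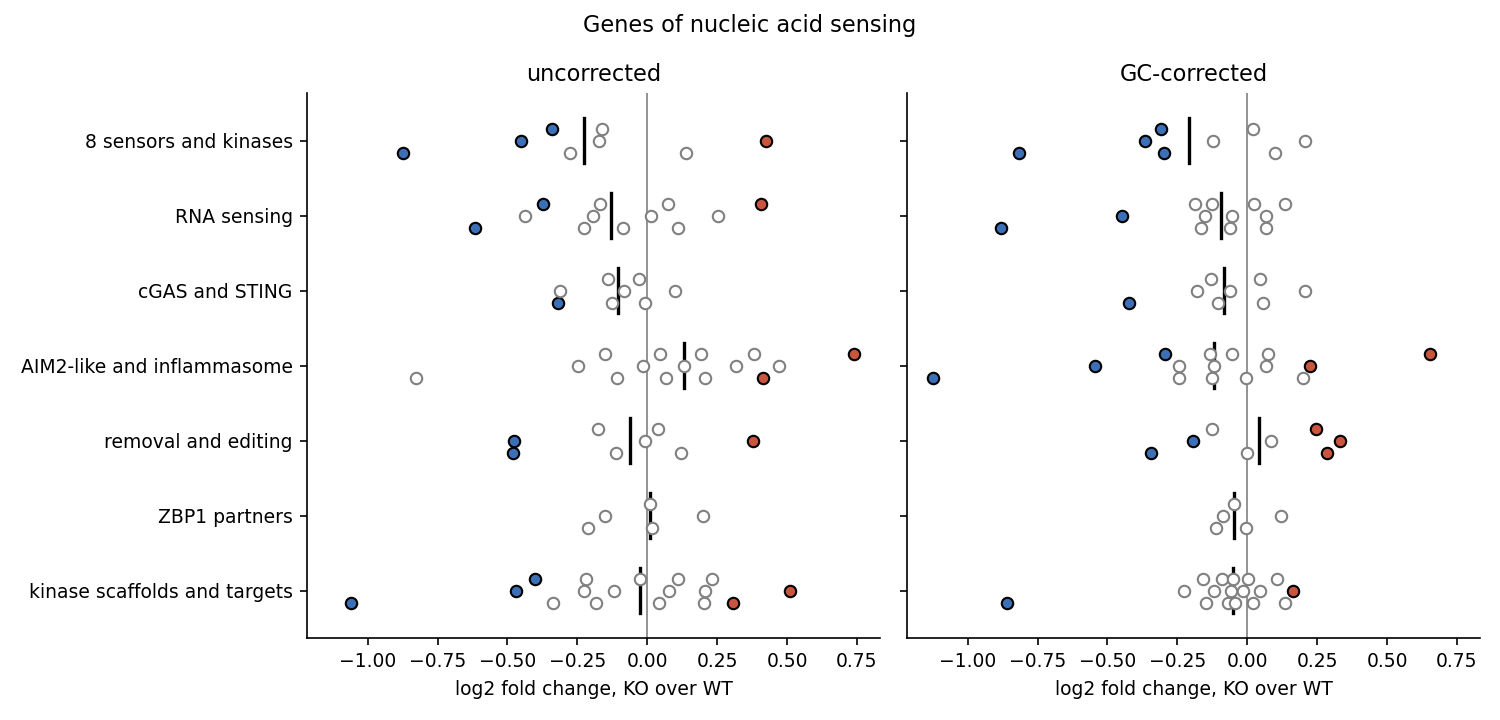
Log2 fold change of KO over WT (x axis) for the 8 members and the tested genes of 6 lists of nucleic acid sensing (y axis), without GC correction at left and with it at right. Each point is a gene, filled blue (lower) or red (higher) at an unadjusted edgeR p under 0.05, bars are medians, and the members' median is furthest below 0 in both panels while the medians of the inflammasome, removal and editing, and ZBP1 partner lists change side.

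The interferons that lie at the end of these routes were hardly read. Of 10 type I and III interferon genes, 9 had 0 counts in all 6 libraries, *Ifnb1* among them, and *Ifnk* had 1 count in KO replicate 2. A count of 0 allows up to 0.15 to 0.173 CPM in a library, for counting error only. Of 16 interferon-stimulated genes on a comparison list, 15 were tested, and 5 of them were lower and 0 higher at an unadjusted p under 0.05 by edgeR, or 9 lower and 0 higher with GC correction. Over all genes tested 13.2% were lower and 13% higher, and 13.2% and 12.6% with correction. Their median log2 fold change was -0.33, and the genes of smallest p were *Oasl2* (-1.01), *Usp18* (-0.73), *Stat2* (-0.46) and *Isg15* (-0.75). The adjusted p by edgeR was 0.0805 for *Oasl2* and 0.147 for each of the others. DESeq2 put *Oasl2* past the limits (adjusted p = 2.19e-06), as it did 1.22% of genes. It did not do so for *Stat2* (adjusted p = 0.0333) and gave *Usp18* and *Isg15* no adjusted p without GC correction. Of the 15 tested, 13 had a log2 fold change below 0 and 2 above it, beside 6580 below and 6848 above among all genes tested. With GC correction 14 were below and 1 above, beside 6738 and 6690 of all genes.

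The genes with profiles most like a member's over the 6 libraries were found by Pearson's r of log2 CPM among all tested genes. For *Dhx58* they were *Rinl* (r = 0.995), *Lrrc8c* (0.994) and *Pgd* (0.993). For *Ikbke* they were *Hvcn1* (0.999), *Esyt1* (0.999) and *Sh3bp2* (0.997), and for *Zbp1* they were *Plxnc1* (0.993), *Fam50a* (0.991) and *Gpr107* (0.99). For *Aim2* they were *Bub1* (0.999), *Rbm7* (0.998) and *1810030O07Rik* (0.998). The 6 points share genotype, library and base composition, and with so few points many genes reach such values.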

How the data were processed

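RNA was read in 3 WT and 3 KO libraries made with a stranded mRNA kit. The authors deposited one table of estimated counts per gene, not normalized and partly not whole. The submitters' processing notes name fastp, HISAT2, StringTie, RSEM and GRCm39, without versions or roles. Its genotype means were not used. Libraries were grouped by the genotype in their labels. Estimated counts were rounded and tested in R 4.3.3 with edgeR 4.0.16 (filterByExpr, TMM, glmQLFit with legacy = FALSE, glmQLFTest) with genotype alone. All 13428 genes tested were adjusted together by the Benjamini-Hochberg method. The common biological coefficient of variation was 0.142. Standard errors were derived from the log2 fold change and the F statistic of the edgeR test. The 95% intervals were built from them with the t distribution, so both are approximate. DESeq2 1.42.0 and limma-voom (limma 3.58.1) were alternatives.

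For the GC correction, a natural spline with 5 degrees of freedom was fitted to each library's deviation and entered as offsets. A GC value was found for 13176 of the tested genes and no correction was made for the rest. Positions, GC content and lengths are from GENCODE release M21 on GRCm38, a different build from that in the processing notes. GC content and length are those of the longest transcript. Promoter sequences are from RefSeq on GRCm38.p6.

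The members and the gene lists were chosen with earlier results of these data known. Named are all 8 members, *Ttc39aos1*, up to 12 pathway genes of smallest unadjusted p under 0.05, *Cgas*, *Sting1*, *Rigi*, *Irf3*, *Irf7* and *Ifnb1*, up to 4 interferon-stimulated genes, and for members with an unadjusted p under 0.05 the 3 genes of most similar profile. *Atrip*, the antisense genes, *Rn18s-rs5*, *Ifnk* and the cell type markers were named after their values were seen. The edgeR fit, with and without GC correction, and the DESeq2 fit were run on simulated counts with known changes. The simulated counts had no GC trend, so they cannot show how the correction acts on one. Intervals and floors for counts cover counting error only.

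The alternatives were other scaling factors, tests, filters and limits, unrounded counts, the replicate block, GC correction, and leaving out each library. Summing *Trex1* with *Atrip*, and leaving out ribosomal and mitochondrial genes, were added after seeing the data.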

Additional observations from a re-analysis of the deposited data

How the results depend on the processing

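The direction of *Ifih1*, *Dhx58*, *Mavs*, *Tbk1*, *Ikbke*, *Zbp1* and *Aim2* held in all 19 alternatives, and no alternative that gave a member an adjusted p put it past 0.01 with a fold above 1.3. DESeq2 gave *Zbp1* none, with or without GC correction. At an adjusted p under 0.05 with that fold, DESeq2 called *Dhx58* (adjusted p = 0.0451) without GC correction and not with it (0.159). With the correction DESeq2 gave *Ikbke* (0.0261) and *Ifih1* (0.0428) an adjusted p under 0.05. Their log2 fold changes in that fit, -0.31 and -0.36, were short of the fold limit. DESeq2 put 1.22% of all genes past the limits, and 3.22% with GC correction. *Irf7* passed them with DESeq2 on both scales and *Rigi* with GC correction. *Trex1* turned to 0.10 with GC correction, 0.097 with the replicate block added and 0.10 in DESeq2 with GC correction. *Sting1* turned to 0.056, 0.052 and 0.059 and *Irf3* to 0.14, 0.13 and 0.14 under the same settings. With libraries left out in turn, *Sting1* ranged from -0.070 to 0.071, turning at 0.042 without WT replicate 2 and at 0.071 without KO replicate 1, and *Cgas* from -0.12 to 0.021, turning at 0.016, 0.013 and 0.021 without WT replicate 3, KO replicate 1 and KO replicate 2. The pathway genes at an unadjusted p under 0.05 numbered 9 to 17 with libraries left out in turn, with 9 without WT replicate 2, and 14 to 19 under the other alternatives. *Aim2* lost its unadjusted p under 0.05 without WT replicate 1, 2 or 3, without KO replicate 3, with limma-voom, with library size alone and with GC correction. *Ddx60* lost its p without WT replicate 1, *Skic2* and *Tank* without WT replicate 2, *Rnaseh2b* without WT replicate 2 or 3 or KO replicate 2 or 3, and *Azi2* without any single WT library or KO replicate 3. With GC correction *Azi2*, *Casp4* and *Tomm70a* lost theirs in all 3 fits, *Tank* in 2 and *Rnaseh2b* in 1. The cause of these changes was not tested.

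The labels do not say whether same-numbered WT and KO libraries have more in common than the number. The deviations of same-numbered libraries correlated at -0.215, 0.0766 and 0.166 for numbers 1, 2 and 3. Between WT and KO libraries of unlike numbers the values ran from -0.291 to 0.293. With the replicate block, 5 members had an unadjusted p under 0.05, beside 26.5% of all genes and with *Mavs* the added gene, and 0 were past the limits. At 20 to 48 counts per library, *Zbp1* is limited by depth, and its fold change of 0.546 has a 95% interval of 0.392 to 0.761.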

Other observations

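The pathway terms in the deposited table gave a wider view of the same routes. Of the genes that KEGG places in RIG-I-like receptor signalling, members left out, 45 were tested, and 4 were higher and 10 lower in KO at an unadjusted p under 0.05 by edgeR. With GC correction 1 was higher and 6 were lower. Over all genes tested 13% were higher and 13.2% lower, and 12.6% and 13.2% with correction. Of the genes of the cytosolic DNA-sensing term, 50 were tested, with 5 higher and 7 lower, and 6 higher and 6 lower with GC correction. The terms share genes, and their median log2 fold changes were -0.086 and -0.019, or -0.050 and -0.015 with GC correction.

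Plasmacytoid dendritic cells are known for high interferon output. Their 5 markers summed to 4.36 to 4.60 CPM in WT and 6.44 to 6.77 CPM in KO, with *Klk1* at 0 in all libraries and no marker at an unadjusted p under 0.05 among the 4 tested.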
